A study of Homo sapiens with 6 samples.

Results

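The expressed ZNF genes of human NCI-H929 (H929) myeloma cells were examined after treatment with Mi-2, a compound that inhibits the MALT1 paracaspase, against the solvent DMSO. The members were chosen by symbol and by level: genes named ZNF followed by a number whose mean over the 6 libraries was at least 5 TPM (a level corrected for transcript length and library size). This selected 144 of the 478 ZNF genes in the deposited tables, which hold 62703 gene IDs in all. Of the 144 members, 41 lie on chromosome 19, out of 241 ZNF genes there, and 103 lie on other chromosomes, out of 237. All 144 are annotated as protein-coding, and all passed the filter on low counts.

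ZNF is a naming class for proteins with zinc fingers, mostly of the C2H2 type, in which a zinc ion holds a short fold that reads DNA or RNA. Many of them carry a KRAB domain that recruits the scaffold TRIM28 (KAP1) and, through it, the histone methyltransferase SETDB1, HP1 proteins and deacetylases. Such KRAB zinc finger proteins are known for silencing transposable elements, and their genes lie in tandem clusters, above all on chromosome 19. The class also holds proteins with quite different work, among them ribosome quality control, ribosome assembly and mitotic spindle function.

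RNA from 3 libraries of cells given 1 µM Mi-2 for 24 h and 3 libraries of cells given DMSO for 24 h was sequenced as read pairs. Both groups were wild-type H929 cells, an established plasma cell myeloma line, grown in RPMI-1640 with 10% fetal bovine serum. Whether each library had its own culture is not stated in the labels, and all sample titles end in "bio rep 1". The replicate numbers used here are those after con and treat in the titles. The p-values here therefore reflect only how far these libraries vary, and that variation may be technical. The compound shares its name with, and is distinct from, the Mi-2 ATPases CHD3 and CHD4 of the NuRD complex.

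The libraries held 19980689 to 23756745 estimated read counts. All 10 plasma cell and myeloma markers were expressed, with CD38 the lowest at 61.3 TPM. The 7 T and NK cell markers summed to 41.7 to 47.4 TPM with Mi-2 and 29.3 to 34.0 TPM with DMSO, with CD3E the only one above 1 TPM and 2 at 0 in all libraries. The 6 myeloid markers summed to less than 1 TPM in each library (0.3 to 0.63 with Mi-2, 0.41 to 0.81 with DMSO). The 7 fibroblast, endothelial and epithelial markers summed to 75.03 to 106.8 TPM with Mi-2 and 61.9 to 79.7 TPM with DMSO, nearly all of it from KRT8 and PECAM1. The part of these lists in the ZNF results was not tested.

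Most expressed ZNF genes moved little after 24 h of Mi-2. In such bulk RNA, fewer cells that express a gene and less of its RNA per cell cannot be told apart. Of the 144 members, 4 passed the threshold of edgeR's quasi-likelihood test (Benjamini-Hochberg adjusted p under 0.05 over 16082 genes tested): ZNF688 rose, and ZNF367, ZNF595 and ZNF107 fell. This is 2.78% of the members, against 11.0% of all genes tested and 15.4% of the 9590 genes tested with a mean TPM of at least 5. The median level was 9.38 TPM for members and 22.2 TPM for genes with a mean TPM of at least 5. By direction, 1 member rose where 5.02% of all genes tested rose, and 3 fell where 6.03% of all genes tested fell. At an unadjusted p under 0.05, 29 members (20.1%) passed, 10 higher and 19 lower, against 27.03% of all genes tested. With the replicate numbers added to the edgeR fit as a block, 21 members (14.6%) were called, against 23.8% of all genes tested. The number of members called depended on single libraries: it was 1 without Mi-2 replicate 1, 1 without DMSO replicate 1, and 2 without DMSO replicate 2 or DMSO replicate 3, while the count over all genes also fell, to 3.14%, 8.33%, 3.86% and 4.19% of genes tested in the same order.

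The chosen threshold cut through a continuum of levels. The lowest members were ZNF407 at 5.01 TPM, ZNF668 at 5.02 TPM and ZNF333 at 5.04 TPM, and the highest ZNF genes left out were ZNF32 at 4.98 TPM, ZNF26 at 4.95 TPM and ZNF586 at 4.94 TPM.

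The stretch of 250 bases before the RefSeq transcription start (GRCh38.p14) is shown for the 4 called members, chosen because they passed the adjusted p threshold. Capitals mark motif matches on either strand: the SP box GGGCGG, the NF-Y box CCAAT, the E2F motif TTTCGCGC and the string TTCCGGGAT. ZNF367 lies at chr9:96418371-96418620 (minus strand), ZNF595 at chr4:53071-53320 (plus), ZNF107 at chr7:64665883-64666132 (plus) and ZNF688 at chr16:30571715-30571964 (minus).
ZNF367: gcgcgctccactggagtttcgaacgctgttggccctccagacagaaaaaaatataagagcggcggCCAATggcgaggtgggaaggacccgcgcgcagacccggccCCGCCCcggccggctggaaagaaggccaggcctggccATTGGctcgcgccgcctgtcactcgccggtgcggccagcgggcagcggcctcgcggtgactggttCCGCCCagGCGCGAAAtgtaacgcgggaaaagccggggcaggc
ZNF595: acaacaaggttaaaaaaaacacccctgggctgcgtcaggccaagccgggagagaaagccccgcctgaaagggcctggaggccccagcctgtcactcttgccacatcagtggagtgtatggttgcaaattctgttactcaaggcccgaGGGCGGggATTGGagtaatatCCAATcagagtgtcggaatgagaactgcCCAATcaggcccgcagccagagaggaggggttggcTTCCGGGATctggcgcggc
ZNF107: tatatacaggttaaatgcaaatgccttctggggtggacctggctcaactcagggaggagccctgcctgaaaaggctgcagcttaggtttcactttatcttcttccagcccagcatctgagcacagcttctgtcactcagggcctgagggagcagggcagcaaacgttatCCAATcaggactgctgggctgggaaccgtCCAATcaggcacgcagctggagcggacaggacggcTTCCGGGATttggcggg
ZNF688: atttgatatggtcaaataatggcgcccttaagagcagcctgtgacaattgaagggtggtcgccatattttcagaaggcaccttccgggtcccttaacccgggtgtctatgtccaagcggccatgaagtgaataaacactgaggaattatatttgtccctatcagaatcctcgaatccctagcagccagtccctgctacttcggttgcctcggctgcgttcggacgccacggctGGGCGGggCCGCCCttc
The ZNF367 stretch holds an E2F motif match that begins 35 bases before the start, with 2 CCAAT and 2 SP box matches upstream of it. ZNF595 and ZNF107 have closely similar ends: each carries CCAAT boxes and then TTCCGGGAT. This string begins 19 bases before the RefSeq start in ZNF595 and 17 bases before it in ZNF107. GENCODE places both starts farther upstream, within the stretches, at chr4:53285 for ZNF595 and chr7:64666083 for ZNF107. By that annotation TTCCGGGAT lies after the start, inside both genes. In ZNF688 the matches are a pair of SP boxes, 17 and 9 bases before the RefSeq start. GENCODE 29 extends ZNF688 farther upstream, past chr16:30572250, where an overlapping antisense gene begins. The ZNF688 stretch therefore lies inside the annotated gene, and 1 GENCODE transcript holds the bases just after this RefSeq start. For ZNF367, GENCODE 29 places the start downstream of the stretch, at chr9:96418329. A match describes the letters and not a bound factor.

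ZNF367, a C2H2 gene on chromosome 9, fell most. It had 17.0, 15.996 and 18.8 CPM (normalised read counts scaled to library size) in Mi-2 libraries, against 38.1, 33.8 and 28.9 CPM in DMSO libraries. All Mi-2 libraries lay below all DMSO libraries, at a mean of 17.3 ± 1.41 CPM with Mi-2 and 33.6 ± 4.59 CPM with DMSO (SD, n = 3 each). The fitted log2 fold change was -0.96 ± 0.13 (SE; edgeR adjusted p = 0.00369), a 1.94-fold decrease. It was called under all 15 alternative settings, with log2 fold changes between -1.06 and -0.85. Of the 3 tested genes on each side of it, one was called, FANCC, a Fanconi anaemia gene, at -0.39 ± 0.10 (edgeR adjusted p = 0.0406).

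ZNF595, at the end of the short arm of chromosome 4, had 23.9, 22.1 and 23.1 CPM in Mi-2 libraries, against 33.7, 28.4 and 35.5 CPM in DMSO libraries. The groups did not overlap, and the log2 fold change was -0.50 ± 0.11 (SE; edgeR adjusted p = 0.0213). Without Mi-2 replicate 1 the adjusted p was 0.0642, without Mi-2 replicate 2 it was 0.0594, without DMSO replicate 1 it was 0.0565 and without DMSO replicate 3 it was 0.0787, while it stayed called without Mi-2 replicate 3 or DMSO replicate 2. Its level was 44.98 TPM on average, the ninth highest among the members. Its next neighbour ZNF718, which fell short of the level threshold at 3.58 TPM, had 5.58, 6.60 and 7.04 CPM in Mi-2 libraries, against 10.2, 8.97 and 9.54 CPM in DMSO libraries (log2 fold change -0.58 ± 0.15, edgeR adjusted p = 0.0374). That call was lost without Mi-2 replicate 1 (adjusted p = 0.141), Mi-2 replicate 2 (0.0733), DMSO replicate 1 (0.0963), DMSO replicate 2 (0.081) or DMSO replicate 3 (0.0981). The member ZNF721, farther along the same arm, had a log2 fold change of -0.02 ± 0.09.

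ZNF107 on chromosome 7 had 38.7, 36.4 and 38.4 CPM in Mi-2 libraries, against 52.5, 57.1 and 44.1 CPM in DMSO libraries. The groups did not overlap in CPM, and the log2 fold change was -0.44 ± 0.11 (SE; edgeR adjusted p = 0.0294). In TPM they did overlap, with 18.4, 16.6 and 19.98 in Mi-2 libraries and 20.9, 23.3 and 18.0 in DMSO libraries, and limma on log2(TPM + 1) gave a change of -0.16 (adjusted p = 0.49). Leaving out Mi-2 replicate 1, 2 or 3 gave an adjusted p of 0.089, 0.0805 or 0.0559, and leaving out DMSO replicate 1 or 2 gave 0.0722 or 0.117.

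ZNF688 on chromosome 16 was the one member that rose. It had 7.53, 6.47 and 8.26 CPM in Mi-2 libraries, against 5.27, 4.38 and 4.66 CPM in DMSO libraries, with all Mi-2 libraries above all DMSO libraries. The log2 fold change was 0.64 ± 0.17 (SE; edgeR adjusted p = 0.0392). The adjusted p was 0.125 without Mi-2 replicate 1, 0.101 without Mi-2 replicate 3, 0.0542 without DMSO replicate 1, 0.132 without DMSO replicate 2 and 0.116 without DMSO replicate 3. An antisense gene on the opposite strand overlaps ZNF688, at 0.58 TPM, and the sources used here do not say whether the counting used strand.

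**Figure D1:**
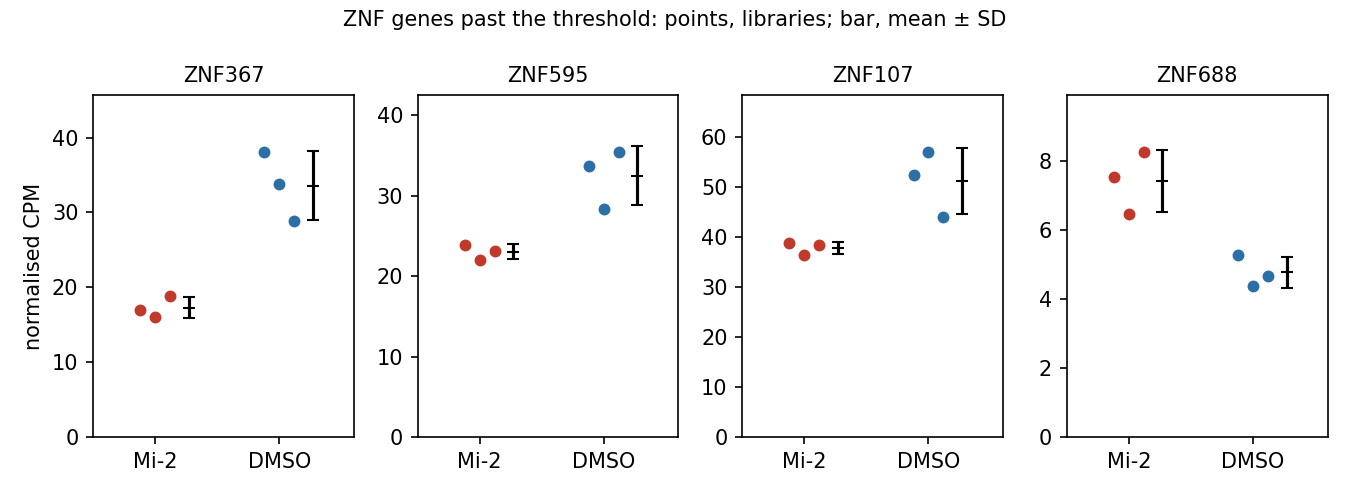
Normalised CPM (vertical axis, from 0) of the 4 called ZNF genes, with Mi-2 libraries (red) left of DMSO libraries (blue), each point 1 library and each bar the mean ± SD of 3. The Mi-2 points lie below the DMSO points for ZNF367, ZNF595 and ZNF107 and above them for ZNF688.

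No other member passed the threshold. Those with the largest fitted decreases were ZNF232 at -0.47 ± 0.18 (edgeR adjusted p = 0.128), ZNF138 at -0.43 ± 0.16 (0.114) and ZNF74 at -0.41 ± 0.13 (0.0811), all log2 fold changes with SE. On the other side, ZNF627 had 10.9, 11.6 and 9.85 CPM in Mi-2 libraries, against 7.36, 8.84 and 6.69 CPM in DMSO libraries (0.50 ± 0.15, edgeR adjusted p = 0.0649). ZNF333 followed at 0.41 ± 0.14 (0.0935), ZNF189 at 0.40 ± 0.14 (0.101), ZNF277 at 0.38 ± 0.11 (0.054) and ZNF174 at 0.37 ± 0.18 (0.206). Among these, ZNF174 alone had overlapping Mi-2 and DMSO values in CPM. Ranges apart were common, though: 41 of 144 members (28.5%; 19 higher and 22 lower with Mi-2), against 32.3% of all genes tested and 38.8% of those with a mean TPM of at least 5.

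The bounds on change were tight for most members. The 95% interval of the fold change lay within 1.5-fold in either direction for 113 of 144 members (78.5%), against 69.6% of genes tested with a mean TPM of at least 5 and 47.2% of all genes tested, and within 2-fold for 142. The median SE of the members' log2 fold changes was 0.115, from 0.074 for ZNF652 to 0.279 for ZNF524. The median size of the log2 fold change was 0.126 for members, against 0.183 for genes tested with a mean TPM of at least 5, whose median SE was 0.110. ZNF367 and ZNF688 were the only members with a fitted change over 1.5-fold.

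**Figure D2:**
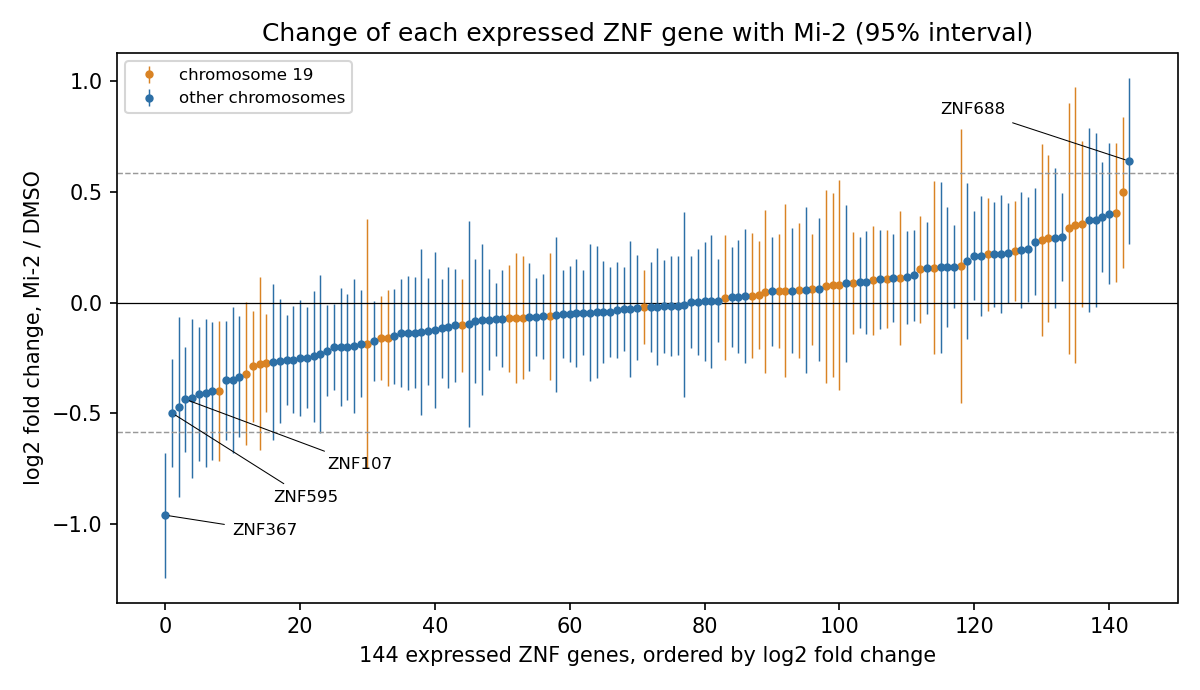
Log2 fold change (Mi-2 over DMSO, vertical axis) of the 144 expressed ZNF genes in order of size, chromosome 19 members in orange and others in blue, with 95% intervals; dashed lines stand at 1.5-fold. The median is -0.02, and the 4 called genes are named.

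The class as a whole had no common direction. The median log2 fold change was -0.02 (quartiles -0.14 and 0.11), with 66 members above 0 and 78 below, beside a median of 0.00 over all genes tested. Their summed level was 2562, 2467 and 2391 TPM in Mi-2 libraries, against 2543, 2633 and 2345 TPM in DMSO libraries, and these ranges overlap.

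Among the 41 members on chromosome 19, where most of the large KRAB clusters lie, none was called by edgeR; 6 had an unadjusted p under 0.05, of which ZNF627, ZNF333 and ZNF558 were higher and ZNF85, ZNF700 and ZNF121 lower (ZNF558, ZNF85, ZNF700 and ZNF121 are named after their values were seen). DESeq2 called 1 of them (ZNF627, higher), and edgeR without Mi-2 replicate 2 called 1 (ZNF414, higher). With a replicate block, edgeR called ZNF627 and ZNF333 higher and ZNF121 and ZNF675 lower. For comparison, 16.4% of the 578 other genes on chromosome 19 tested with a mean TPM of at least 5 were called. Their median level was 34.2 TPM and their median SE 0.114, against 8.59 TPM and 0.131 for the 41 members. The sets were thus not matched in level or precision. On the other chromosomes 4 of 103 members were called (3.88%). No test of the difference between 0 of 41 and 4 of 103 was made.

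The fitted changes on chromosome 19 had a median of 0.06, with 27 above 0 and 14 below; on the other chromosomes the median was -0.04, with 39 above 0 and 64 below. Library by library, the median deviation of the chromosome 19 members from their own mean (log2 CPM) was 0.08, -0.01 and 0.04 with Mi-2 and -0.05, 0.00 and -0.02 with DMSO. The groups overlapped, Mi-2 replicate 2 lying between the DMSO libraries. Without DMSO replicate 3 the median change of the chromosome 19 members was 0.01. Across these 41 genes the fitted change went with the GC content of the transcripts (Pearson r = 0.43, Spearman rho = 0.46, across genes of the same 6 libraries, which are not independent replicates); across the other 103 members it did not (Pearson r = 0.04). The part of base composition in the chromosome 19 values was not tested.

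Most members were low in abundance. A mean of 5 to 10 TPM was found for 76 members, 10 to 20 TPM for 39, 20 to 50 TPM for 21 and at least 50 TPM for 8. None of those 8 lies on chromosome 19, whose highest member was ZNF146 at 41.0 TPM. Several of the highest have known work outside KRAB repression.

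ZNF706 had the highest mean, 145 TPM, with 154, 162 and 141 CPM in Mi-2 libraries against 139, 133 and 137 CPM in DMSO libraries. Its groups did not overlap, but its log2 fold change of 0.16 ± 0.08 did not pass the threshold (edgeR adjusted p = 0.246). ZNF207, which encodes the kinetochore and spindle protein BuGZ, averaged 142 TPM and had 269, 288 and 270 CPM in Mi-2 libraries, against 290, 292 and 283 CPM in DMSO libraries. These overlap (log2 fold change -0.06 ± 0.08, 95% interval -0.24 to 0.11). ZNF217, a transcriptional regulator amplified in breast cancer, had 574, 496 and 443 CPM in Mi-2 libraries, against 479, 396 and 409 CPM in DMSO libraries. It too overlapped, at 0.24 ± 0.12 (edgeR adjusted p = 0.227).

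Members that act on ribosomes differed in sign and none was called. ZNF593, a factor of the large ribosomal subunit's assembly, averaged 102 TPM and had a log2 fold change of -0.03 ± 0.10 (95% interval -0.25 to 0.18). ZNF598, the ubiquitin ligase that marks collided ribosomes, had 112, 133 and 144 CPM in Mi-2 libraries, against 140, 182 and 144 CPM in DMSO libraries (-0.26 ± 0.13, edgeR adjusted p = 0.213). ZNF622, which works on late large-subunit precursors, had 102, 91.4 and 90.0 CPM in Mi-2 libraries, against 83.1, 73.2 and 74.9 CPM in DMSO libraries. The ZNF622 groups were apart, and its change of 0.30 ± 0.09 stood just outside the threshold (edgeR adjusted p = 0.0625).

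A few further members are given for their known roles, with no fixed list behind the choice. ZNF638, which with the HUSH complex silences unintegrated retroviral DNA, had a log2 fold change of 0.00 ± 0.09. ZNF143 and its paralogue ZNF76, activators that bind promoters, had -0.14 ± 0.11 and -0.13 ± 0.11. ZNF410, known for activating the NuRD gene CHD4, had 0.11 ± 0.09, and CHD4 itself 0.01 ± 0.10. ZNF274, which brings SETDB1 to ZNF gene clusters, had 0.02 ± 0.13, and ZNF91, a repressor of SVA retrotransposons, had 0.11 ± 0.13. The SUMO ligase gene ZNF451 had -0.05 ± 0.09, ZNF644, whose product works with the methyltransferase G9a, 0.11 ± 0.10, and ZNF384, a fusion partner in leukaemia, -0.05 ± 0.11. None of these was called by edgeR.

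**Figure D3:**
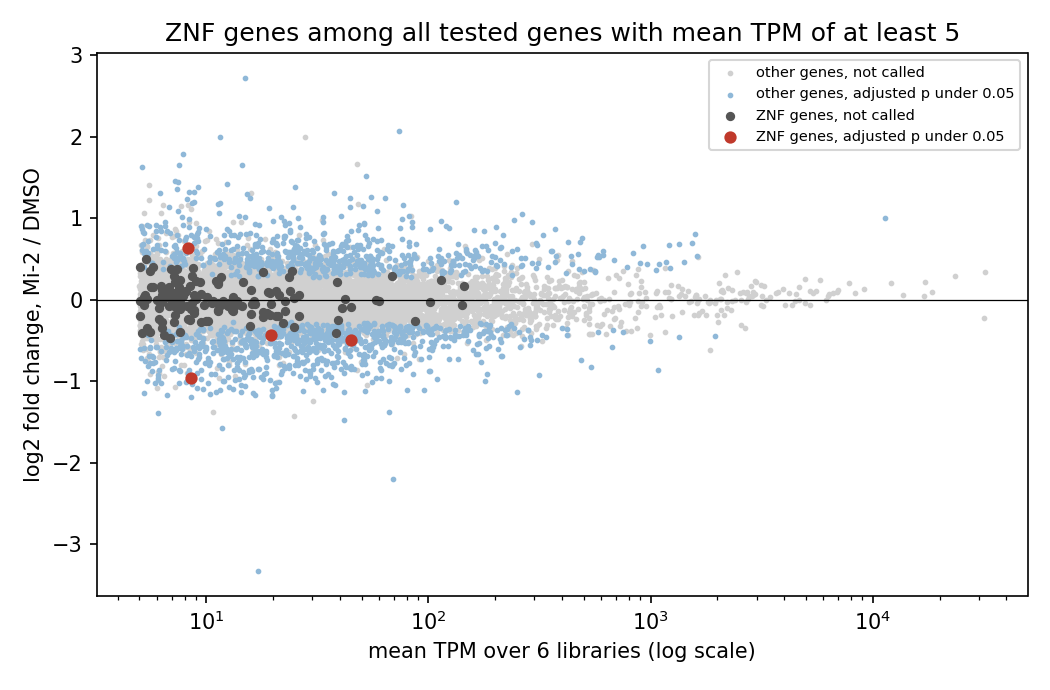
Mean TPM (horizontal, log scale) and log2 fold change (Mi-2 over DMSO, vertical) of the tested genes with a mean TPM of at least 5. The 144 ZNF genes (dark and red points) lie mostly near 0, and the 4 called ones (red) have means of 8.3 to 44.98 TPM.

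Neighbouring ZNF genes of any level were joined into a group where the gap between them was at most 500 kb, and 11 of these groups held at least 3 members. In the chromosome 7 group of ZNF107, ZNF138 and ZNF92 all 3 fitted changes were negative, with a median of -0.43; only ZNF107 was called. ZNF92 had 23.4, 21.1 and 21.5 CPM in Mi-2 libraries, against 28.1, 23.7 and 27.2 CPM in DMSO libraries (-0.26 ± 0.11, edgeR adjusted p = 0.159). In the same stretch ZNF273, under the level threshold, had -0.42 ± 0.16, while ZNF117 had 0.16 ± 0.15. The chromosome 16 group around ZNF688 had 8 members and a median of -0.10, with ZNF689 at -0.35 ± 0.12 (edgeR adjusted p = 0.0914) and ZNF747 at -0.01 ± 0.19. So the rise of ZNF688 stood beside genes that did not pass the test in either direction. The 6 chromosome 19 groups had medians from -0.06 to 0.17, the lowest being that of ZNF101, ZNF85, ZNF708, ZNF493, ZNF91 and ZNF675 and the highest that of ZNF524, ZNF580, ZNF581, ZNF787 and ZNF444. The ranges of the members in these 6 groups overlap, and differences between the groups were not tested.

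**Figure D4:**
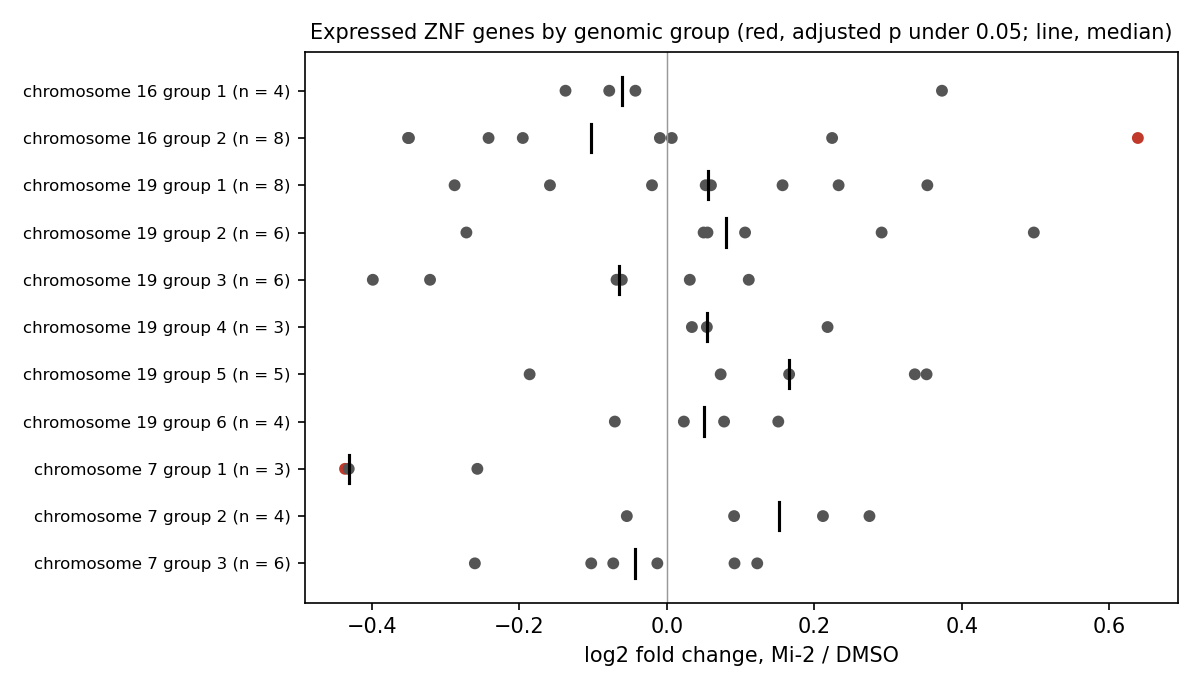
Log2 fold changes (Mi-2 over DMSO, horizontal) of the members in 11 genomic groups (rows), each point 1 gene, red where called, with the median as a black line. The chromosome 7 group 1 has all 3 genes below 0, while the other groups except chromosome 19 group 4 hold genes on both sides.

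Promoters of 131 members were matched by symbol (39 on chromosome 19 and 92 elsewhere) among 27305 genes, in windows of 300 bases from 250 before to 50 after the start. The members' windows had a median GC content of 63.7% and a median of 24 CpG pairs, against 58.3% and 14 over all genes. Members were chosen by level, while the promoters of all genes were not. The part of expression level in these and the following differences was not tested. The SP box was found in 71.0% of members and 44.6% of all promoters, CCAAT in 44.3% and 35.7%, and the ETS motif CCGGAAGT in 16.03% and 4.44%. The YY1 motif AAGATGGCG was found in 6.11% and 1.85%, and the NRF1 motif GCATGCGC in 6.11% and 3.27%. The E2F motif TTTCGCGC was found in 2 members (1.53%), the called ZNF367 among them, against 0.546% of all promoters. The E2F motif TTTGGCGC was found in 4 members (3.05%), against 0.659%. The string TTCCGGGAT stood in 10 members (7.63%) and in 76 of all promoters (0.278%), 24 of which belong to ZNF genes. It is the string shared by the called members ZNF595 and ZNF107, which are among the 10, so these counts are a description only. Both strands were searched; this string and the ETS motif share the letters TTCCGG, so a match to one can overlap a match to the other.

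The promoters of ZNF595 and ZNF107 are 70.0% identical by global alignment, and other ZNF genes on several chromosomes reach like values. As a baseline, the 120 members under 65% identity to the ZNF595 promoter had a median identity of 58.3%, and the highest was 64.3%. The cut at 65% therefore divides a continuum. The starts used below are those of RefSeq. GENCODE places the start inside the stretch shown for ZNF519, ZNF92, ZNF138, ZNF85, ZNF493 and ZNF91, and upstream of it for ZNF627. The last 100 bases before the start are shown for members of this group with fitted changes on both sides of 0, capitals as above: ZNF519 (chr18:14132436-14132535, minus strand), ZNF92 (chr7:65373755-65373854, plus), ZNF138 (chr7:64794328-64794427, plus), ZNF85 (chr19:20923151-20923250, plus), ZNF493 (chr19:21397033-21397132, plus), ZNF91 (chr19:23395472-23395571, minus) and ZNF627 (chr19:11597383-11597482, plus).
ZNF519: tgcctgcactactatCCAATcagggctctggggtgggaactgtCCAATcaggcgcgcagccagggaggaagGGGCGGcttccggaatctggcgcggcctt
ZNF92: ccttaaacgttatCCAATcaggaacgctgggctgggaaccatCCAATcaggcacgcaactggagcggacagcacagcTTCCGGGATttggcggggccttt
ZNF138: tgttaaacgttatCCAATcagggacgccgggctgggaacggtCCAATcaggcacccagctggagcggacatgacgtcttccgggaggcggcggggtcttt
ZNF85: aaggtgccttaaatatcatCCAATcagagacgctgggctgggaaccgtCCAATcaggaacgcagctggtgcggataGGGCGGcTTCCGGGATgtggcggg
ZNF493: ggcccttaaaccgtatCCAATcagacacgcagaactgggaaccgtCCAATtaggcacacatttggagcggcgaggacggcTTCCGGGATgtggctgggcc
ZNF91: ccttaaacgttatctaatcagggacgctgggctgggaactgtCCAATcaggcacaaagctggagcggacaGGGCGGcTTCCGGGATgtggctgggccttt
ZNF627: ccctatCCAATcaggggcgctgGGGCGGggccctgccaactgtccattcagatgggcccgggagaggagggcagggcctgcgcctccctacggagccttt
With an identity to the ZNF595 promoter of at least 65%, 10 other members had a median log2 fold change of -0.29, with 7 below 0 and 1 called (ZNF107). The remaining 120 members with a matched promoter had a median of -0.02, with 65 below 0, 1 called higher and 1 called lower. Under the level threshold, 25 more ZNF genes reached 65% identity; their median was -0.20, and 17 were below 0. The likeness did not fix the direction: ZNF493 (71.0% identical to ZNF595) had 0.03 ± 0.13, ZNF91 (69.0%) had 0.11 ± 0.13, and ZNF627 (65%) had the largest change of the 10 in either direction, 0.50 ± 0.15 (edgeR adjusted p = 0.0649). The most similar promoter among the tested ZNF genes, that of ZNF141 (83.3%), belonged to a gene at 0.04 ± 0.13, while ZNF718, the neighbour of ZNF595 that fell, has a promoter 53.7% identical to it. This grouping was chosen after the values of ZNF595 and ZNF107 were seen, and it was not tested. The fall of ZNF107, which is counted among the 10, was thus known beforehand.

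Near-identical sequence affected few members. Of the 75-base windows in each member's GENCODE transcripts, the median share also found in another gene was 0%, and 15 members exceeded 10%. For the 4 called members the share was 0%. It was highest for ZNF23 (41.6%), and it was 33.2% for ZNF410 and 32.8% for ZNF747, whose values are uncertain to that extent.

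Of the 334 ZNF genes under the level threshold, 263 were tested, and 8 rose and 2 fell (3.80%), beside 4.56% of the 6492 genes tested with a mean TPM under 5. The largest rises were those of ZNF467 on chromosome 7, which had 10.1, 5.00 and 7.17 CPM in Mi-2 libraries, against 2.44, 2.12 and 2.07 CPM in DMSO libraries (log2 fold change 1.74 ± 0.26, edgeR adjusted p = 0.00576), and ZNF844 on chromosome 19 at 0.97 ± 0.27 and a mean of 0.552 TPM. ZNF467 was called under every alternative, but ZNF844 stood at the threshold and was called without DMSO replicate 1 alone among the libraries left out (adjusted p of 0.0511 to 0.168 otherwise). Just under the level threshold, and named for that after its values were seen, ZNF841 (4.89 TPM) had 22.2, 15.6 and 16.6 CPM in Mi-2 libraries, against 12.5, 9.46 and 11.3 CPM in DMSO libraries (log2 fold change 0.71 ± 0.17, edgeR adjusted p = 0.0261; 0.096 without Mi-2 replicate 1, 0.098 without DMSO replicate 2 and 0.0815 without DMSO replicate 3). The genes that fell were ZNF718, described above, and ZNF738 on chromosome 19 at -0.55 ± 0.15 (edgeR adjusted p = 0.0412), a call that held among the libraries left out only without Mi-2 replicate 2 (adjusted p of 0.074 to 0.136 otherwise). Of these ZNF genes, 2 rose without Mi-2 replicate 1, DMSO replicate 2 or DMSO replicate 3, 4 without Mi-2 replicate 3 and 5 without Mi-2 replicate 2. Both decreases were lost without Mi-2 replicate 1, DMSO replicate 1, DMSO replicate 2 or DMSO replicate 3. Among the families with related zinc fingers (ZSCAN, ZKSCAN, ZBTB, ZFP and KLF), 4 of 91 tested genes were called (4.40%), beside 11.0% of all genes tested and 4.56% of those under 5 TPM. The median level of these families was 3.86 TPM. ZBTB7B, a regulator of T helper cell fate, had 88.3, 86.4 and 101 CPM in Mi-2 libraries, against 54.5, 64.3 and 66.7 CPM in DMSO libraries (0.57 ± 0.10, edgeR adjusted p = 0.0102). ZBTB22 (0.55 ± 0.15) and ZKSCAN1 (0.29 ± 0.08) also rose, and KLF11 fell (-0.61 ± 0.14); ZBTB22 was no longer called without any one library but Mi-2 replicate 2 (adjusted p of 0.0603 to 0.152), ZKSCAN1 without any one but Mi-2 replicate 3 (0.0809 to 0.152), and KLF11 without Mi-2 replicate 1 (0.0901), DMSO replicate 1 (0.0624) or DMSO replicate 3 (0.0722).

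The partners through which KRAB zinc fingers act were examined beside them. In a list of 34 genes of TRIM28, HP1, HUSH, NuRD and the heterochromatin methyltransferases, 10 fell and none rose by edgeR (29.4% called). Of all genes tested, 6.03% fell. The list's median level was 33.5 TPM, and calls were commoner at such levels. Of the 9590 genes tested with a mean TPM of at least 5, 824 fell and 15.4% were called in either direction. On the list 2 were higher at an unadjusted p under 0.05, and DESeq2 called 1 higher. The list's median log2 fold change was -0.21, with 28 of 34 below 0. The list was chosen with earlier results of these data known.

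TRIM28 itself averaged 204 TPM and had 122, 133 and 135 CPM in Mi-2 libraries, against 166, 179 and 162 CPM in DMSO libraries. Its groups did not overlap (log2 fold change -0.38 ± 0.08, edgeR adjusted p = 0.0215), but the adjusted p was 0.0934 without Mi-2 replicate 1, 0.0897 without DMSO replicate 2 and 0.0513 without DMSO replicate 3. SETDB1, its methyltransferase partner, had 100.3, 105 and 102 CPM in Mi-2 libraries, against 102, 108 and 111 CPM in DMSO libraries. That is a change of -0.06 ± 0.08 (edgeR adjusted p = 0.675), and the ranges overlap.

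The largest decreases on the list were those of UHRF1 (-0.98 ± 0.14, edgeR adjusted p = 0.00462) and DNMT1 (-0.77 ± 0.09, 0.00244), which together copy DNA methylation onto new strands. UHRF1 had 48.7, 53.1 and 73.1 CPM in Mi-2 libraries, against 116, 112 and 117 CPM in DMSO libraries. DNMT1 had 171, 177 and 196 CPM in Mi-2 libraries, against 290, 327 and 314 CPM in DMSO libraries, and both genes were called under all 15 alternatives. SUV39H2, a histone H3 methyltransferase, fell by 0.73 on the log2 scale (SE 0.14, edgeR adjusted p = 0.0131; 0.0544 without DMSO replicate 2). CBX5, which encodes an HP1 protein, fell by 0.64 (SE 0.14, edgeR adjusted p = 0.0175; 0.0629 without Mi-2 replicate 1, 0.0562 without Mi-2 replicate 2 and 0.0632 without DMSO replicate 3). SUV39H1, MBD3, CBX3, MTA2 and RBBP7 were the others that fell. The number lower on the list ranged from 5 to 12 when single libraries were left out; it was 5 without Mi-2 replicate 1, DMSO replicate 2 or DMSO replicate 3.

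**Figure D5:**
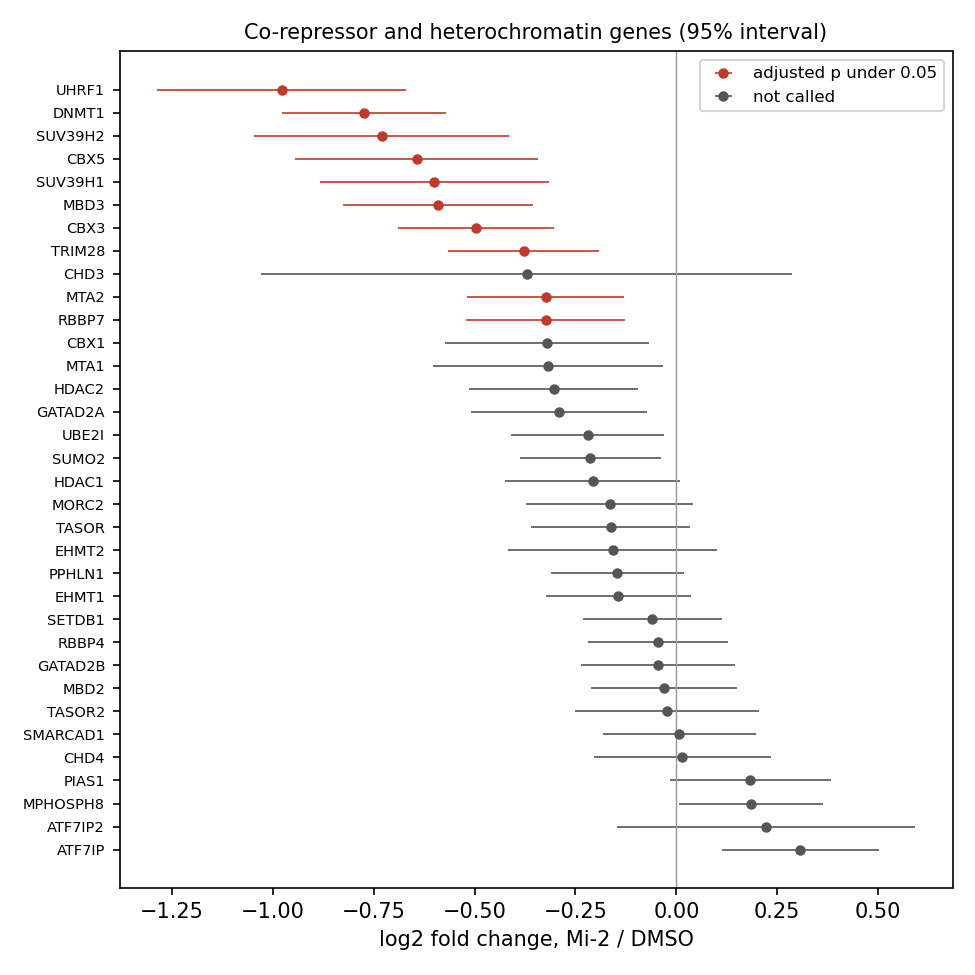
Log2 fold change (Mi-2 over DMSO, horizontal) with 95% interval of the 34 co-repressor and heterochromatin genes (rows), red where called. The 10 called genes all lie below 0, from UHRF1 at -0.98 to RBBP7 at -0.32.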

How the data were processed

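RNA-seq of 6 H929 libraries was analysed, 3 with Mi-2 and 3 with DMSO, as labelled. The deposited tables hold the authors' estimated counts and the authors' TPM for 62703 Ensembl gene IDs. The submitters' processing notes name fastp 0.19.5, HISAT2 2.1.0, StringTie 2.1.0, RSEM 1.3.3 and GRCh38.p13, with no roles given; the strand setting is not given in the sources used here. TPM depends on the estimated transcript length as well as on the reads, so TPM and count changes can differ.

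Estimated counts were rounded to whole numbers and tested with edgeR 4.0.16 (filterByExpr with minimum counts of 10 and 15, TMM scaling, quasi-likelihood F test, Benjamini-Hochberg adjustment over 16082 genes, threshold 0.05; R 4.3.3). The common biological coefficient of variation was 14.2%. TPM was used for levels and membership. Gene positions follow GENCODE 29 (GRCh38), and promoters follow RefSeq (GRCh38.p14). Alternatives used DESeq2 1.42.0, scaling by RLE or upper quartiles, limma 3.58.1 (voom, and log2 TPM with pseudocounts 1 and 0.1 and a mean TPM of at least 1), other filters, a replicate block, each library left out, and membership at 3 and 10 TPM. No 2 libraries of a group agreed within sampling noise (chi-square per degree of freedom 15.0 to 21.1).

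Named genes were the called members (at most 12 a direction), the 5 highest in TPM, the 3 nearest the threshold on each side, uncalled members of the largest change to fill 6 a direction, TRIM28 and SETDB1, up to 4 called co-repressors and up to 2 called genes a direction of the other families; exceptions are stated. The members and lists were chosen with earlier results of these data known. Protein features of the members were not analysed here. The fitting steps were tested on simulated data, with changes set in genes of any tested level. There, 100 genes were changed at each fold, among 15796 tested. This is a smaller share than the 11.0% called in the measured data, so the recovery there can differ. In the simulation 34.3% of the 1.5-fold changes and 65.3% of the 2-fold changes were called, with 7 false calls. A gene that was not called can therefore still have changed.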

Additional observations from a re-analysis of the deposited data

How the results depend on the processing

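ZNF367 was called under every alternative run. RLE scaling and limma-voom called the same 4 members. Members called higher numbered 3 with upper-quartile scaling (3 on other chromosomes) and 3 with DESeq2 (1 on chromosome 19 and 2 elsewhere), 2 with no filter or a 1 CPM filter (2 elsewhere), and 0 on log2(TPM + 1) (0 elsewhere), against 1. With membership at 3 TPM, 4 were higher and 5 lower (2 and 1 on chromosome 19, 2 higher elsewhere); at 10 TPM, 0 were higher (0 elsewhere). The members' median log2 fold change was 0.0068 with upper-quartile scaling and -0.042 at 10 TPM, and that of members on other chromosomes was -0.016 with upper-quartile scaling and -0.028 at 3 TPM; upper-quartile scaling shifted all genes by a median of 0.027.

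Over all genes, 1221 were higher and 1541 lower with no filter, 229 and 381 on log2(TPM + 1), 249 and 398 on log2(TPM + 0.1), against 808 and 969. Co-repressors lower numbered 5 with either TPM scale, and 1 was higher with upper-quartile scaling, DESeq2 or a 1 CPM filter. In the other C2H2 families 2 were lower with DESeq2 or no filter, and 1 higher and 0 lower with either TPM scale. Of the ZNF genes under 5 TPM, 4 were lower with DESeq2 and 6 with no filter, and 1 was higher and 0 lower with either TPM scale, against 8 and 2.

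With single libraries left out, members called ranged from 0 to 2 higher and 1 to 3 lower (chromosome 19: 0 to 1 higher, 0 lower; elsewhere 0 to 1 and 1 to 3). All genes ranged from 216 to 715 higher and 302 to 866 lower, co-repressors from 0 to 1 and 5 to 12, the other families from 1 to 2 and 0 to 1, and ZNF genes under 5 TPM from 2 to 6 and 0 to 2. The median ranged from -0.033 to -0.011 for members, 0.012 to 0.085 on chromosome 19 and -0.064 to -0.041 elsewhere.

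Replicate numbers were not shown to pair the libraries. The correlations of same-numbered libraries' deviations were 0.409, 0.0593 and 0.261. Those of differently numbered libraries ranged from -0.326 to 0.0795, the highest being Mi-2 replicate 2 with DMSO replicate 3. The labels do not say whether the numbers mark a shared culture, day or batch. With a replicate block, 10 members were higher and 11 lower (2 and 2 on chromosome 19, 8 and 9 elsewhere), 1791 and 2035 of all genes, 1 co-repressor was higher, 10 and 3 in the other families, and 9 lower among ZNF genes under 5 TPM. The share called was 14.6% of members and 23.8% of all genes tested, against 2.78% and 11.0% without the block. The cause of these changes was not tested. ZNF622 was called with DESeq2, upper-quartile scaling and the replicate block. The members' median SE was 0.115, beside 0.110 for genes tested with a mean TPM of at least 5.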
